A study of Mus musculus with 6 samples.

Results

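Read counts were followed for 10 genes of dendritic cells in bone marrow that carried a Dnmt3a knockout. The genes were chosen by symbol, and all 10 were found among the 14992 genes of the table. Of these, 7 mark plasmacytoid dendritic cells (Siglech, Tcf4, Ccr9, Pacsin1, Ly6d, Runx2 and Bcl11a) and 3 mark conventional dendritic cells (Xcr1, Clec9a and Zbtb46). The donor cells were whole marrow of Dnmt3a knockout mice, which the treatment protocol calls leukemic, and they had been transplanted into irradiated C57/BL6 recipients. Recipients received vehicle (3 libraries, numbered 1, 2 and 3) or an inhibitor of PI3K alpha and beta at 75 mg/kg (3 libraries, numbered 1, 3 and 5), both for 21 days, and marrow was then harvested. Both groups therefore carry the knockout and the transplant, and no wild-type marrow was analysed here. The labels give neither the age or sex of the mice, nor the driver of the knockout, nor the share of recipient cells left in the marrow, and nothing in them says whether libraries stem from separate mice. The p-values therefore measure only the spread between these libraries.

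Plasmacytoid dendritic cells are the specialised makers of type I interferon, which they release after sensing viral nucleic acid through the endosomal receptors TLR7 and TLR9. The E protein encoded by Tcf4 keeps them in their lineage, and its antagonist ID2 favours the conventional lineage. Conventional dendritic cells take up and present antigen, and their type 1 subset (cDC1) is known for presenting material of dead cells to CD8 T cells. Both lineages arise in marrow under FLT3 ligand, and several of the 10 genes are also active in other marrow cells: Tcf4, Bcl11a and Ly6d in B-cell precursors, Ccr9 in developing T cells, Runx2 in osteoblasts and Zbtb46 in endothelium and erythroid precursors.

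The promoters of 5 members are shown because their fitted log2 fold changes differed in size within their own lineage. The values were -0.25 for Siglech, -0.85 for Ccr9 and -0.68 for Pacsin1. They were -2.14 for Xcr1 and 0.12 ± 0.24 (SE) for Clec9a, both used here as cDC1 markers. Bulk counts do not show whether Xcr1 and Clec9a were read in the same cells. None of the 5 passed the test between inhibitor and vehicle, and the Clec9a value turned to -0.041 without vehicle 1. The ratios between members tested below could not pass at this size of study. A link between the promoter sequences and these values was not tested. Each line gives 250 bases upstream of the RefSeq start on the gene's own strand (GRCm38.p6). The windows are chr7:55767934-55768183 (+) for Siglech, chr9:123766961-123767210 (+) for Ccr9, chr17:27684989-27685238 (+) for Pacsin1, chr9:123862030-123862279 (-) for Xcr1 and chr6:129408612-129408861 (+) for Clec9a. Capitals mark CACCTG, an E-box form that E proteins bind, and TGTGGT, the RUNX motif, each on either strand.
Siglech: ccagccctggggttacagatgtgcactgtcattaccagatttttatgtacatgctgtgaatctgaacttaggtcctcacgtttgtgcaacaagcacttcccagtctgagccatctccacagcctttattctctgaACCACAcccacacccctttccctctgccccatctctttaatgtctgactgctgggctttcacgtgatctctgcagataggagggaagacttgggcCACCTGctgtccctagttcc
Ccr9: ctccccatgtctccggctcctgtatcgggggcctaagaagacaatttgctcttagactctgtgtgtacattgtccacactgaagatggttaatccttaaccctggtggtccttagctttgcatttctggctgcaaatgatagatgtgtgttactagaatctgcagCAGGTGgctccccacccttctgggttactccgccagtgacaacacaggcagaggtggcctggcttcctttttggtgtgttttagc
Pacsin1: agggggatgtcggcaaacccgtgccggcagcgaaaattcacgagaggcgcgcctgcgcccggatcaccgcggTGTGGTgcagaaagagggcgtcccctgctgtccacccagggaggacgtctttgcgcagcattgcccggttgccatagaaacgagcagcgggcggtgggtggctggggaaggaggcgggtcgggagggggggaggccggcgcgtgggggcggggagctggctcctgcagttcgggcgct
Xcr1: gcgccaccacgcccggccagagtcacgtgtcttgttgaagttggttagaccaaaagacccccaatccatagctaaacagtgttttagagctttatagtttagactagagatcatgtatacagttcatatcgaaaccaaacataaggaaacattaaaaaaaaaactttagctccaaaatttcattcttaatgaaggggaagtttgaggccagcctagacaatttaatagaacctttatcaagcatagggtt
Clec9a: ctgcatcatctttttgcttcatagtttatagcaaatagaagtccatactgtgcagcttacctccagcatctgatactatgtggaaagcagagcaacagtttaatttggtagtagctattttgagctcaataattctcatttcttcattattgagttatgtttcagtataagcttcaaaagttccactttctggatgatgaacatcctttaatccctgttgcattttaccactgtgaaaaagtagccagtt

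Windows for 8 of the 10 members were matched in the RefSeq table. CACCTG was found in 3 of the 8 (Siglech, Ccr9 and Zbtb46), against 17.2% of all 32851 promoter windows of the same length. The Zbtb46 window (chromosome 2, 181424389 to 181424638) lies inside the gene's GENCODE span, and the bases after it are in 5 of its 5 transcripts. It may thus precede an internal exon, and its E-box matches may lie in an intron. The windows of Ccr9, Pacsin1 and Bcl11a also lie inside the GENCODE spans of their genes. In Siglech the match begins 20 bases before the start and in Ccr9 85 bases before it, where it reads as the complement CAGGTG. The RUNX motif was found in Siglech, Pacsin1 and Runx2, against 14% of all windows, and in Siglech and Pacsin1 it begins 115 and 178 bases before the start. The general E-box CANNTG, of which CACCTG is a special case, was in 7 of the 8, all but Pacsin1, and in 66.2% of all windows. A further E-box form, CAGCTG, was in 0 of the 8 member windows, against 13% of all windows. The motif GAGGAA, the core read by PU.1, was likewise in 0 of the 8, against 23.3%. The core of the interferon-stimulated response element was also in 0 of the 8, against 2.98%. These counts describe letters in the windows and say nothing of whether a factor binds there.

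None of the 10 genes passed the test between inhibitor and vehicle. The test was edgeR's quasi-likelihood test over 12806 genes with a Benjamini-Hochberg adjusted p under 0.05, which called 0.633% of all tested genes higher and 1.19% lower. Before adjustment, 4 members lay lower with a p under 0.05 (Ccr9, Pacsin1, Xcr1 and Zbtb46) and 0 lay higher, where the whole table gave 11.9% and 9.68%. With DESeq2, Ccr9 and Pacsin1 passed as lower and 0 members as higher (7.23% and 4.9% of the table). With limma voom 0 members passed (0.429% of the table lower and 0.234% higher), and with voom quality weights 4 passed as lower and 0 as higher (11.6% and 10.7%). The largest of these weights, 4.4, went to inhibitor 3. Without vehicle 1, the library that received the smallest quality weight, edgeR passed 0 members (4.89% lower and 3.1% higher), and without vehicle 3 or any one of the inhibitor libraries it passed 0 genes of the whole table. Every inhibitor library was below every vehicle library in 6 members, against 16.2% of all tested genes, and in none of the 10 was every inhibitor library above every vehicle library, against 14.4%. The median log2 fold change was -0.24 over the members and 0.00093 over all tested genes. The shares given here are also the background for the counts of the gene lists below. Members and lists were chosen with earlier results of these data known, so a count above its share is no test. In bulk marrow, fewer cells of a type and less RNA per cell cannot be told apart.

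**Figure D1:**
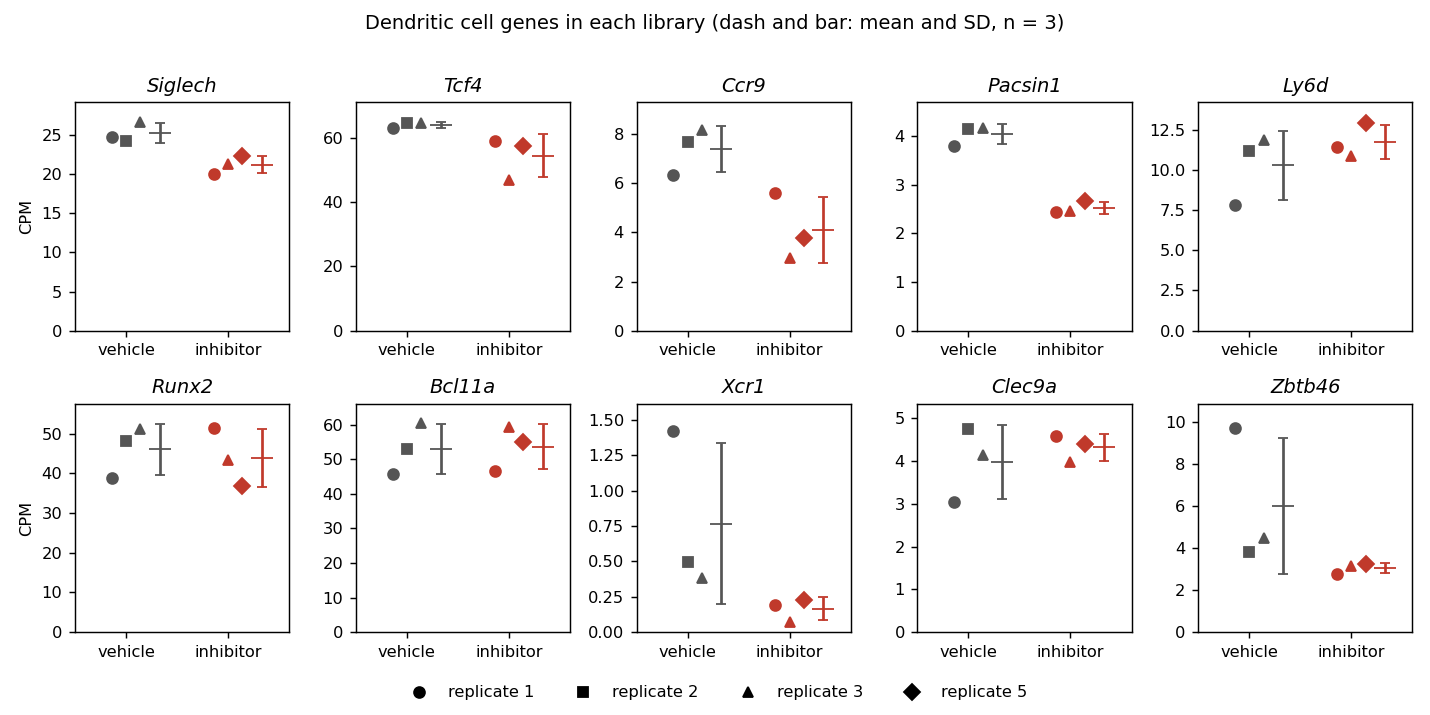
Level in CPM (linear axis from 0) of the 10 genes in each library, with vehicle in grey and inhibitor in red, marker shape for the replicate number, and a dash with bar for the mean and SD of 3 libraries. Siglech, Tcf4, Ccr9, Pacsin1, Xcr1 and Zbtb46 have no overlap between groups, and vehicle 1 is the highest library for Xcr1 and Zbtb46.

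Siglech encodes a surface lectin that is the most widely used marker of mouse plasmacytoid dendritic cells. It lies on chromosome 7 from 55768178 to 55778925 (gene positions here are those of GENCODE M21, GRCm38). Its level in CPM, counts relative to the scaled library size, was 24.8, 24.3 and 26.7 CPM in vehicle libraries 1, 2 and 3 and 20.1, 21.4 and 22.3 CPM in inhibitor libraries 1, 3 and 5. The groups did not overlap, and the libraries within a group lay close together, with an SD of 5.06% of the mean in vehicle and 5.29% in inhibitor. On the log2 scale the difference was -0.25 with an SE of 0.12 over 3 libraries in each group (edgeR adjusted p = 0.286), or 84.1% of vehicle, with a 95% interval from -0.54 to 0.041.

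Tcf4, the gene of the E protein that maintains the plasmacytoid lineage (chromosome 18, 69343356 to 69689079), was by CPM the most abundant of the 10. It stood at 63.2, 64.6 and 64.6 CPM in vehicle libraries 1, 2 and 3 and at 59.2, 47.0 and 57.6 CPM in inhibitor libraries 1, 3 and 5. The 3 vehicles were nearly level, and inhibitor 3 was the lowest library. The fitted log2 change was -0.23 ± 0.12 (SE; edgeR adjusted p = 0.314), with a 95% interval from -0.52 to 0.057. Without inhibitor 3 it was -0.13. The intervals of Siglech and Tcf4 both include 0.

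Runx2, a Runt-domain factor that governs the exit of plasmacytoid dendritic cells from marrow (chromosome 17, 44495987 to 44814797), was at 38.9, 48.1 and 51.1 CPM in vehicle libraries 1, 2 and 3 and at 51.5, 43.3 and 36.8 CPM in inhibitor libraries 1, 3 and 5. The highest and the lowest library were both inhibitor libraries. Its log2 fold change was -0.071 ± 0.17 (SE; edgeR adjusted p = 0.834). Bcl11a, a zinc finger repressor needed early in plasmacytoid and B-cell development (chromosome 11, 24078056 to 24174123), was at 45.8, 52.9 and 60.3 CPM in the vehicle libraries and at 46.6, 59.4 and 54.9 CPM in inhibitor libraries 1, 3 and 5. These ranges coincide almost wholly, and the log2 fold change was 0.016 ± 0.15 (adjusted p = 0.962), with a 95% interval from -0.33 to 0.37. The signs of both values turned when single libraries were left out: for Runx2 to 0.011 without vehicle 3 and 0.043 without inhibitor 5, and for Bcl11a to -0.080 without vehicle 1 and -0.058 without inhibitor 3. In GENCODE, Runx2 shares 519 exonic bases with the antisense gene Runx2os1 and Bcl11a 316 with the antisense gene 4930538E20Rik, and reads there cannot be assigned to a strand. The annotation used for counting is not given, so whether these bases were counted is not known.

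Ly6d, a GPI-anchored antigen of B-biased lymphoid progenitors from which many plasmacytoid dendritic cells also arise (chromosome 15, 74762056 to 74763620), was at 7.84, 11.2 and 11.8 CPM in vehicle libraries 1, 2 and 3 and at 11.4, 10.9 and 12.9 CPM in inhibitor libraries 1, 3 and 5. Vehicle 1 was the lowest library, and the other vehicles lay within the inhibitor range. The log2 fold change was 0.19 ± 0.20 (SE; edgeR adjusted p = 0.615), and 0.027 without vehicle 1. B-cell markers summed higher with inhibitor: the summed level of 16 B lymphoid markers ran from 98.8 to 174 CPM in vehicle and from 209 to 643 CPM in inhibitor libraries, with 0 markers at 0 counts in any library and a median log2 fold change of 1.52. Of these markers 2 rose, the surrogate light chain genes Vpreb1 and Igll1 of B-cell precursors, by 3.14 and 3.25 on the log2 scale, and 0 fell. The other sign was seen in 3 of the 16, Ms4a1, Cd22 and Cd72, at -1.29, -0.85 and -0.46, none of which passed. Without vehicle 1, 5 markers passed as higher and 1, Cd22, as lower (adjusted p = 0.0469). Tcf4, Bcl11a and Ly6d are also read in such cells, and the part of B-cell RNA in their values was not tested.

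Ccr9 encodes the receptor for the gut and thymic chemokine CCL25 and marks mature plasmacytoid dendritic cells (chromosome 9, 123678439 to 123784330). It was at 6.36, 7.68 and 8.16 CPM in vehicle libraries 1, 2 and 3 and at 5.60, 2.98 and 3.77 CPM in inhibitor libraries 1, 3 and 5. Inhibitor 1 lay close under vehicle 1, and the other inhibitor libraries were well below. On the log2 scale the difference was -0.85 ± 0.27 (SE; edgeR adjusted p = 0.133), or 55.6% of vehicle, and it ran from -1.13 without inhibitor 1 to -0.66 without inhibitor 3. The authors' deposited table gives it an adjusted p of 0.0439, where 6.57% of genes with an adjusted p pass as lower and 4.24% as higher. T cells also carry CCR9: 10 measured T lymphoid markers summed to 99.2 to 140 CPM in vehicle and 60.7 to 80.1 CPM in inhibitor libraries. Of the 10, 0 were called and 8 were lower at an unadjusted p under 0.05, against 11.9% of all tested genes. They had 0 markers at 0 counts in any library and a median log2 fold change of -0.99. Without vehicle 1, 4 of the 10 passed as lower (4.89% of all tested genes). The part of T-cell RNA in the Ccr9 value was not tested. In GENCODE the exons of Ccr9 share 1932 bases with the opposite-strand gene AC165425.1, and these libraries do not mark strand, so some of its reads may be of either gene. The deposited length of Ccr9 is 4392 bases, against 10260 exonic bases in GENCODE. Whether the shared bases were counted is thus not known.

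Pacsin1, a membrane-bending adaptor protein best known from neurons and needed for interferon release by plasmacytoid dendritic cells (chromosome 17, 27655509 to 27711482), was even within each group. It was at 3.79, 4.14 and 4.17 CPM in vehicle libraries 1, 2 and 3 and at 2.44, 2.46 and 2.66 CPM in inhibitor libraries 1, 3 and 5. All inhibitor libraries sat clearly under all vehicles, with SDs of 5.23% and 4.90% of the mean. The fitted log2 change was -0.68 ± 0.21 (SE; edgeR adjusted p = 0.122), or 62.5% of vehicle, and leaving out single libraries moved it only between -0.72 and -0.65. In the authors' deposited table its adjusted p is 0.0320. Counts ran from 66 to 262 per library.

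Xcr1 encodes the receptor for the chemokine XCL1 and is restricted to cDC1 (chromosome 9, 123852315 to 123862029). It was the lowest of the 10, with 50, 18 and 24 reads in vehicle libraries 1, 2 and 3 and 6, 2 and 8 reads in inhibitor libraries 1, 3 and 5. On the CPM scale these are 1.43, 0.497 and 0.382 against 0.195, 0.0744 and 0.226. Exact Poisson 95% intervals, which cover counting error only, were 10.7 to 28.4 reads for vehicle 2 and 3.45 to 15.8 reads for inhibitor 5, so counting alone leaves these libraries overlapping. The log2 fold change was -2.14 ± 0.68 (SE; edgeR adjusted p = 0.132), and -1.34 without vehicle 1 (adjusted p = 0.161).

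Clec9a, used here as a cDC1 marker, encodes a receptor for actin exposed on dead cells (chromosome 6, 129408862 to 129424763) and did not show such values. It was at 3.05, 4.75 and 4.15 CPM in vehicle libraries 1, 2 and 3 and at 4.59, 3.98 and 4.39 CPM in inhibitor libraries 1, 3 and 5. The inhibitor libraries lay within the vehicle range, and the log2 fold change was 0.12 ± 0.24 (SE; edgeR adjusted p = 0.802), with a 95% interval from -0.44 to 0.67. Without vehicle 1 it was -0.041. Its exons share 184 bases with Clec1b in GENCODE, a lectin gene of platelets.

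Zbtb46 encodes a transcription factor of the conventional lineage (chromosome 2, 181387762 to 181459426). It was at 9.72, 3.84 and 4.47 CPM in vehicle libraries 1, 2 and 3 and at 2.76, 3.16 and 3.23 CPM in inhibitor libraries 1, 3 and 5. Vehicle 1 stood well above the other vehicles, which lay a little above the inhibitor libraries. On the log2 scale the difference was -0.97 ± 0.38 (SE; edgeR adjusted p = 0.194) and shrank to -0.45 without vehicle 1 (adjusted p = 0.204). Vehicle 1 was also the highest library for the summed level of 10 endothelial markers, at 170 CPM against 74.4 to 117 CPM in the other 5 libraries, and for 9 measured erythroid markers, at 4854 CPM against 846 to 1868 CPM. Of the endothelial markers 0 were called and 2 were lower at an unadjusted p under 0.05, with a median of -0.063 on the log2 scale. Of the erythroid markers 0 were called, with a median of -0.51. Without vehicle 1 the medians had the other sign, 0.35 for the endothelial and 0.073 for the erythroid list, with 0 called in each. None of either list was at 0 counts in a library, and their part in the Zbtb46 value was not tested.

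**Figure D2:**
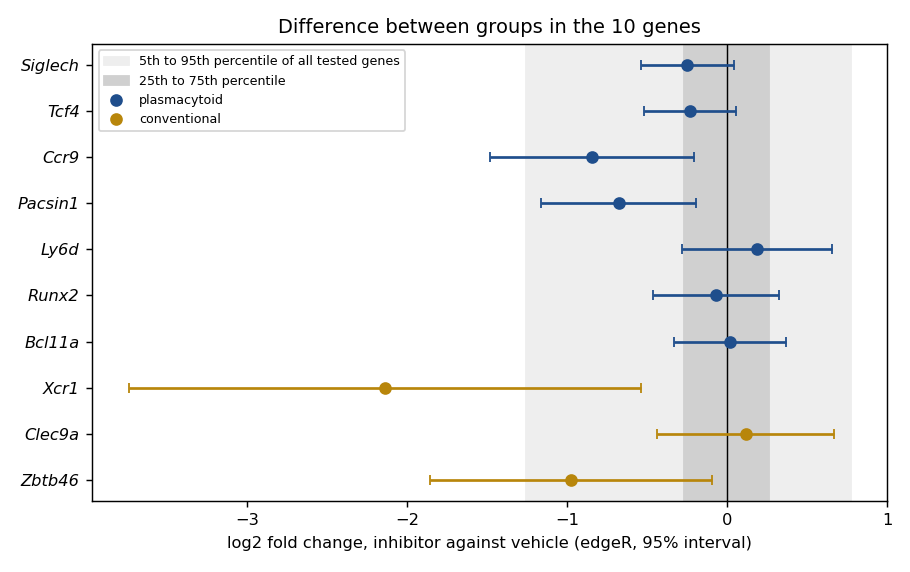
Log2 fold change of each gene, inhibitor against vehicle, with the edgeR 95% interval (plasmacytoid genes blue, conventional genes gold). Grey bands give the 25th to 75th and the 5th to 95th percentile of all 12806 tested genes, and the intervals of Ccr9, Pacsin1, Xcr1 and Zbtb46 lie below 0 before adjustment for the number of genes.

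**Figure D3:**
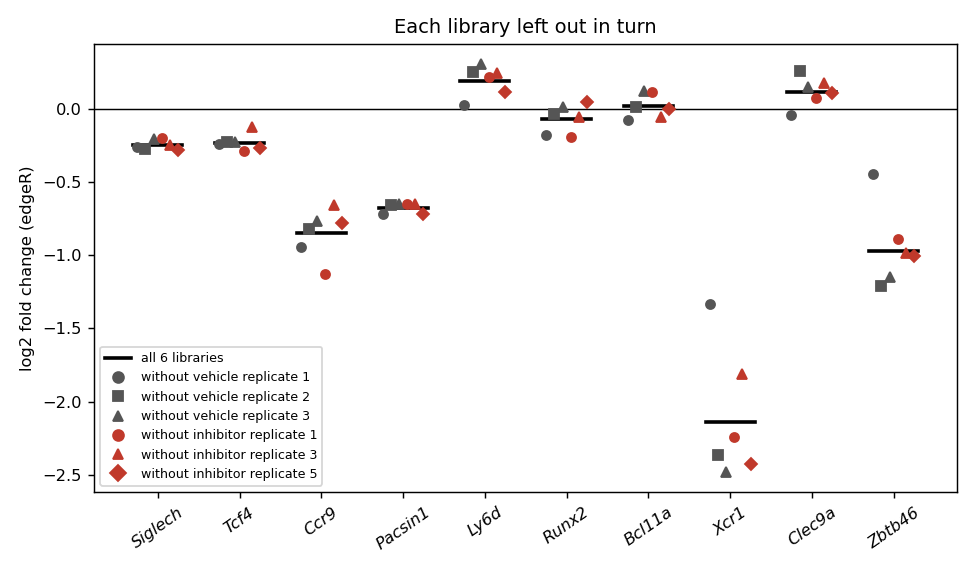
Log2 fold change of each gene over all 6 libraries (black line) and with 1 library left out (grey for a vehicle library, red for an inhibitor library). Pacsin1 stays between -0.72 and -0.65, whereas Xcr1 and Zbtb46 move towards 0 without vehicle 1, to -1.34 and -0.45.

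Ratios between members listed here under 1 lineage, taken within a library, do not depend on the scaling between libraries. They were computed for 6 pairs chosen after the values were seen, as log2 of the read counts with 0.5 added, and tested two-sided by exact permutation of the libraries, which for 3 against 3 cannot give a p below 0.1. The ratio of Xcr1 to Clec9a was -1.09, -3.22 and -3.42 in vehicle libraries 1, 2 and 3 and -4.44, -5.43 and -4.19 in inhibitor libraries 1, 3 and 5, a difference of -2.11 (exact permutation p = 0.1; 0.15 adjusted over the 6 pairs). All inhibitor libraries thus held fewer Xcr1 reads per Clec9a read than any vehicle. Bulk counts do not show whether both genes were read in the same cells, and a change within cDC1 was not tested. The ratio of Pacsin1 to Siglech was -2.70, -2.55 and -2.68 with vehicle and -3.03, -3.11 and -3.06 with inhibitor, also without overlap, with a difference of -0.42 (exact permutation p = 0.1, adjusted 0.15). That of Ccr9 to Siglech overlapped between groups, since inhibitor 1 at -1.84 lay above vehicle 1 at -1.96, with a difference of -0.64 (exact permutation p = 0.2, adjusted 0.24). Tcf4 to Siglech differed by 0.0099 (exact permutation p = 0.9), Bcl11a to Siglech by 0.27 and Zbtb46 to Clec9a by -0.99 (both exact permutation p = 0.1, adjusted 0.15). Bcl11a to Siglech did not overlap between groups, with inhibitor higher. Its ratio was 0.887, 1.12 and 1.18 in vehicle libraries and 1.22, 1.47 and 1.30 in inhibitor libraries. For Zbtb46 to Clec9a the vehicle libraries 1, 2 and 3 stood at 1.67, -0.31 and 0.11 and the inhibitor libraries 1, 3 and 5 at -0.73, -0.33 and -0.44, so that vehicle 2 lay just above inhibitor 3. Without vehicle 1 that difference was -0.40, and the one for Xcr1 to Clec9a was -1.37. At this size of study none of the 6 differences could pass.

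**Figure D4:**
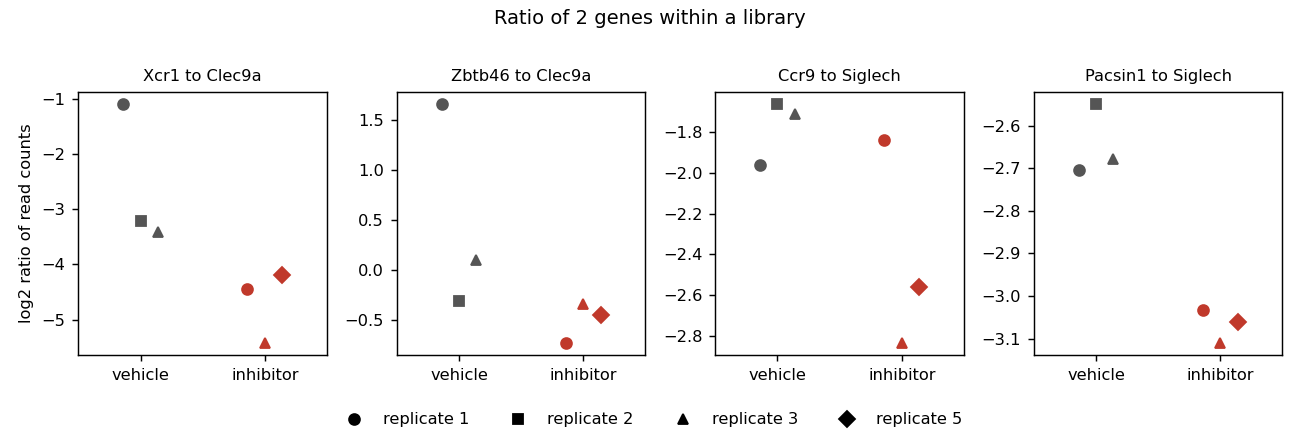
Log2 ratio of the read counts of 2 genes in each library for 4 of the 6 pairs, with vehicle in grey and inhibitor in red. The groups separate for Xcr1 to Clec9a, Zbtb46 to Clec9a and Pacsin1 to Siglech, with inhibitor lower, and overlap for Ccr9 to Siglech. Bcl11a to Siglech, not shown, separates with inhibitor higher.

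Levels between genes were compared per length, as RPKM (CPM divided by the gene's length in kilobases) averaged over all 6 libraries. The order was Ly6d at 15.9, Siglech at 9.70, Tcf4 at 7.73, Bcl11a at 7.60, Runx2 at 5.26, Zbtb46 at 1.36, Ccr9 at 1.31, Clec9a at 1.26, Pacsin1 at 0.741 and Xcr1 at 0.105 RPKM. Ly6d stood apart from Siglech in every library, with a lowest value of 11.3 RPKM against a highest of 11.1 RPKM. Siglech, Tcf4 and Bcl11a overlapped as neighbours, and so did Zbtb46, Ccr9, Clec9a and Pacsin1. Runx2 lay apart from both of its neighbours, and Xcr1 lay apart below Pacsin1.

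Across the 6 libraries, Pacsin1 was the member most like Siglech, with a Pearson correlation of log2(CPM + 1) of 0.931, and 83 of 9473 candidate genes were at least as like. For Ccr9 the value was 0.687, for Tcf4 0.638, for Zbtb46 0.618, for Xcr1 0.572, for Bcl11a 0.268 and for Runx2 0.041, while Ly6d and Clec9a had -0.240 and -0.322. The 5 candidates most like Siglech were Mavs (0.991), Gtf2h4 (0.990), Ccdc66 (0.984), Med27 (0.984) and Cactin (0.982), none of them a member of the dendritic lists used here. Candidates needed a mean of at least 5 CPM. Pacsin1, Zbtb46, Clec9a, Xcr1 and the low genes of the lists could therefore not be among them. These values are descriptions over 6 libraries that share the 2 groups.

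Among other plasmacytoid genes, 2 fell and 1 rose. Klk1, a kallikrein protease gene used as a plasmacytoid marker, fell from 1.14, 0.967 and 1.59 CPM in vehicle libraries 1, 2 and 3 to 0.228, 0.186 and 0.227 CPM in inhibitor libraries 1, 3 and 5, a log2 fold change of -2.51 ± 0.38 SE (p adjusted by edgeR, 0.0364). These are low counts, of 40, 35 and 100 reads with vehicle and 7, 5 and 8 reads with inhibitor. Irf7, the factor that drives the interferon alpha genes, fell from 143, 124 and 93.2 CPM to 66.1, 45.9 and 44.8 CPM, which is -1.20 ± 0.22 on the log2 scale (adjusted p = 0.0463). Cd209d rose by 1.76 ± 0.30 (adjusted p = 0.042). The Cd209 genes are close copies of each other, so their counts are uncertain. Of 24 tested genes of this list, 6 lay higher and 5 lay lower when p was left unadjusted (under 0.05), against 9.68% and 11.9% of all tested genes. The median log2 fold change was 0.19. Without vehicle 1 that median was -0.026, and 5 genes passed as higher and 2 as lower (3.1% and 4.89% of all tested genes). The list was mixed: Bst2, the interferon-inducible antigen of plasmacytoid dendritic cells also known as PDCA-1, had a value of -0.48 ± 0.13 without passing. Dntt, the terminal transferase that also marks B-cell precursors, had a value of 1.62 ± 0.32 (adjusted p = 0.0553), and passed without vehicle 1 at 1.38 (adjusted p = 0.0208). Blnk, Cd300c, Smim5 and Atp1b1 had values of 1.53, 1.12, 0.64 and 1.14 without passing, each with a smaller p than Bst2. Ly6a also had a smaller p than Bst2 and lay lower, at -1.50 ± 0.38 (edgeR adjusted p = 0.0832). Leaving out vehicle 1, edgeR passed Blnk, Cd300c and Smim5 as higher (adjusted p = 0.0480, 0.0342 and 0.0186).

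Nucleic acid sensing genes lay lower in 10 of 11 tested members, and 3 fell. Irf5, a transcription factor downstream of TLR7 and TLR9, fell from 116, 118 and 125 CPM to 69.9, 65.6 and 62.03 CPM, a log2 fold change of -0.86 ± 0.11 SE (p adjusted by edgeR, 0.0241). Pld4, an endosomal nuclease that limits TLR9 signalling, fell by 1.16 ± 0.15 on the log2 scale (adjusted p = 0.0257), and Irf7 is the other called member. Tlr9, the receptor for unmethylated DNA, stood at -1.15 ± 0.23 on the log2 scale (adjusted p = 0.0563), and without vehicle 1 it passed at -1.32 (adjusted p = 0.00898). Tlr7, the receptor for single-stranded RNA, and Myd88, the shared adaptor, did not pass, at -0.36 and -0.10. The median of the list was -0.36, and log2 fold changes below 0 made up 50% of all tested genes. Irf5, Pld4 and Irf7 are also expressed by macrophages and monocytes. All 12 macrophage markers tested were lower at an unadjusted p under 0.05, against 11.9% of all tested genes. The 6 that fell were Cd5l, Vsig4, Mertk, Spic, Adgre1 and Maf, by 5.55, 4.35, 2.97, 2.22, 1.41 and 1.31 on the log2 scale, and 11 passed without vehicle 1. Their summed level was 2169 to 7062 CPM in vehicle and 666 to 946 CPM in inhibitor libraries, with vehicle 1 the highest and no marker at 0 counts in a library. The part of macrophage RNA in the sensing genes was not tested.

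Among 15 tested cDC1 genes other than the members, 3 fell and 0 rose, 12 had log2 fold changes below 0, and the median was -0.66. Without vehicle 1, 7 of the 15 passed as lower (4.89% of all tested genes), and DESeq2 passed 6 as lower (7.23%). Tlr3, the receptor for double-stranded RNA that cDC1 carry, fell from 5.73, 4.31 and 3.23 CPM to 1.53, 1.04 and 1.10 CPM, a log2 fold change of -1.85 ± 0.32 SE (p adjusted by edgeR, 0.0428). Rab7b, a GTPase of late endosomes, fell by 1.21 ± 0.15 (adjusted p = 0.0241), and Ifi205, an interferon-inducible gene of a family of close copies, fell by 2.30 ± 0.37 (adjusted p = 0.0403). Cadm1, an adhesion molecule of cDC1, had a value of -2.48 ± 0.56 (adjusted p = 0.0685), and passed without vehicle 1 at a smaller value of -1.61 (adjusted p = 0.0157). Batf3 and Irf8, the factors on which cDC1 depend, had values of -1.51 ± 0.40 and -0.64 ± 0.19 (adjusted p = 0.091 and 0.108). They too passed without vehicle 1, at -1.63 and -0.77 (adjusted p = 0.0492 and 0.0341). Wdfy4, needed for presentation of cell-associated antigen, had a value of 0.0010 ± 0.15, near that of Clec9a. The macrophage markers lay lower in the same libraries, and their part in these values was not tested.

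In the list of cDC2 and pan-conventional genes 1 of 20 rose and 0 fell. Cd209a, the DC-SIGN homologue of type 2 and monocyte-related dendritic cells, rose from 0.798, 1.13 and 1.21 CPM to 7.35, 5.84 and 7.98 CPM, a log2 fold change of 2.74 ± 0.27 SE (p adjusted by edgeR, 0.0214), with the same limit on close copies. Klf4, Dpp4 and Flt3 had values of -1.10, 1.26 and 0.48 without passing. Without vehicle 1, 2 genes passed as higher and 1, Klf4, as lower (-1.28, adjusted p = 0.00552). Flt3, the receptor through which both lineages are maintained, was at 27.7, 29.1 and 34.3 CPM with vehicle and 48.6, 44.2 and 34.8 CPM with inhibitor (adjusted p = 0.149). The list's median was 0.24.

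Regulators of the lineage choice did not pass in the edgeR test, with 0 of 19 called. Before adjustment 1 gene lay higher and 2 lay lower (9.68% and 11.9% of all tested genes). DESeq2 passed 1 as higher and 2 as lower (4.9% and 7.23%). Without vehicle 1 edgeR passed Zeb2 and Bcl11b as lower, at -0.89 and -1.46 (adjusted p = 0.0276 and 0.0399). Zeb2, which represses Id2 in plasmacytoid dendritic cells, had a log2 fold change of -0.73 ± 0.22 SE (p adjusted by edgeR, 0.112), Mycl, a MYC family gene of dendritic cells, one of 0.94 ± 0.23, Bcl11b, a T-cell factor, one of -1.44 ± 0.33 and Etv6 one of -0.23 ± 0.11. Id2, the antagonist of the Tcf4 product, had a value of -0.11 ± 0.16, and Tcf3 and Tcf12, the other E protein genes, had values of 0.10 and -0.041. Among 10 growth factor receptor and ligand genes, Il7r and Kit, receptors of lymphoid and early progenitors, rose by 1.93 ± 0.33 and 0.66 ± 0.12 (adjusted p = 0.0434 and 0.0463). Csf1r and Csf2rb2 had values of -1.72 ± 0.33 and -0.71 ± 0.19 without passing (Csf1r passed without vehicle 1, at -1.27, adjusted p = 0.00881), and Flt3l, the FLT3 ligand gene, one of 0.084. Csf1r is also among the 12 macrophage markers, and the part of macrophage RNA in its value was not tested. With each gene counted once, the lists of other dendritic genes, regulators and receptors held 97 tested genes. Of these, 4 were called higher and 7 lower by edgeR, against 0.633% and 1.19% of all tested genes. The lists were chosen with earlier results of these data known, so these counts do not test for an excess.

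**Figure D5:**
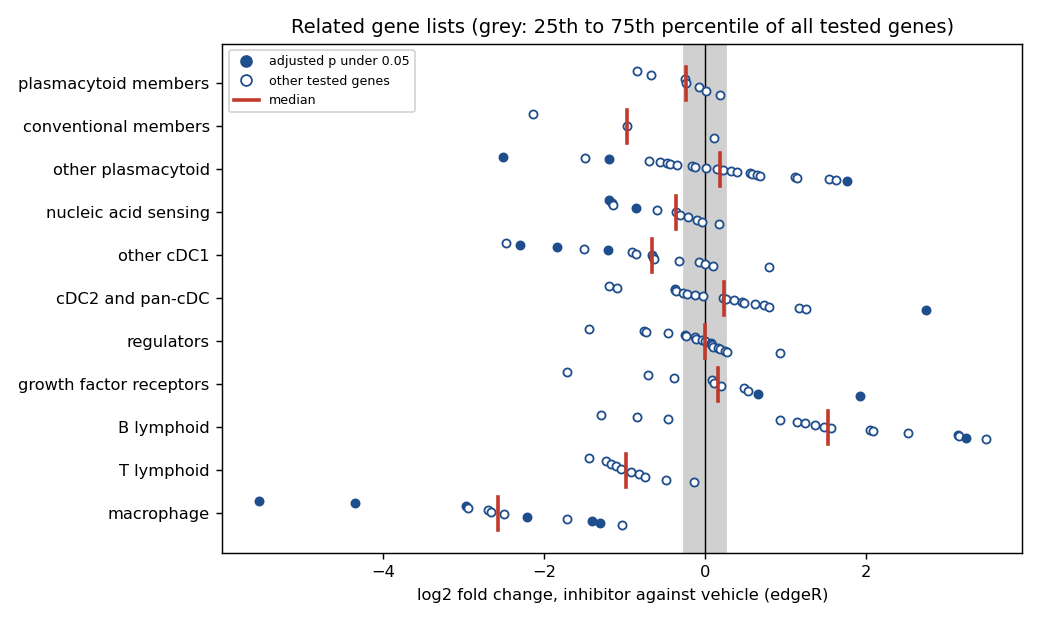
Log2 fold changes, inhibitor against vehicle, of the tested genes of each list (filled where the edgeR adjusted p is under 0.05, red line at the median, grey band for the 25th to 75th percentile of all tested genes). None of the 10 members is filled, while 3 sensing genes and 3 other cDC1 genes are filled below 0, and Cd209a is filled at 2.74.

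Dnmt3a itself was read at 15.4 to 24.9 CPM over the 6 libraries. With no wild-type library and no statement of which exons were deleted, this does not check the knockout. Total counts ran from 28198638 to 59384880 per library, with vehicle 3 the deepest. Marrow identity was read from 11 measured neutrophil markers, which summed to 39880 to 64750 CPM in vehicle and 102374 to 123175 CPM in inhibitor libraries. Of these, 2 were called higher (Camp and Elane, log2 fold changes 1.38 and 1.03), 5 passed as higher without vehicle 1, and the median was 0.87. Osteoblast and stroma genes were present too, with 10 of 12 tested, 1 called (Dmp1, -3.77) and a sum of 1291 CPM in vehicle 1 against 205 to 386 CPM in the other libraries. Without vehicle 1 the median of the tested genes moved from -1.31 to -0.44, and 3 passed as lower. Of the 12 genes, 2 were at 0 counts in at least 1 library. Runx2 is read in osteoblasts as well, and the part of their RNA in its value was not tested.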

How the data were processed

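RNA was measured in 6 mouse marrow libraries made, per the labels' protocols, with a full-length low-input cDNA kit and a library kit that does not mark strand. The submitters' processing notes name STAR, featureCounts and the build mm10. Their versions, the annotation, and the test behind the authors' comparison are not given in the sources used here. Per gene, the authors deposited raw read counts, a length in bases, and from their comparison a linear ratio, its log2 value and a p-value before and after adjustment.

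The main test was the quasi-likelihood test of edgeR 4.0.16 (R 4.3.3), with group as the only term and TMM scaling. The filterByExpr filter kept 12806 genes, all 10 members among them, and removed 2186. CPM uses TMM-scaled library sizes, and the standard error is the log2 fold change divided by the square root of F. The steps were tested on simulated data. Alternatives were DESeq2 1.42.0, limma 3.58.1 voom with and without quality weights, other scalings, filters and thresholds, a replicate block, and leaving out single libraries. The lists and ratios without vehicle 1 were added after seeing the data. Named genes are the 10 members, in each list the called genes and up to 4 with the smallest p (of lists of other cell types only the called genes were named under it), and the 5 genes most like Siglech with a mean of at least 5 CPM. Other genes named, and the 6 ratio pairs, were chosen after their values were seen. The members and lists were chosen with earlier results of these data known.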

Additional observations from a re-analysis of the deposited data

How the results depend on the processing

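Over all genes, edgeR called 81 higher and 153 lower. The counts were 628 and 926 with the DESeq2 test, 30 and 55 with limma voom, 1374 and 1483 with voom quality weights (which gave vehicle 1 a weight of 0.161), 422 and 634 at an adjusted p under 0.10, and from 0 to 401 higher and 0 to 633 lower with 1 library left out (the highest without vehicle 1, and 0 without vehicle 3 or any of the inhibitor libraries). Of the 10 members 0 were called higher in any setting. Called lower were 2 with DESeq2 (Ccr9 and Pacsin1) and 4 with quality weights (Tcf4, Ccr9, Pacsin1 and Xcr1), and 0 in the other settings. The largest quality weight, 4.4, went to inhibitor 3, which was the lowest library for Tcf4, Ccr9 and Xcr1. Tcf4 was at -0.373 with these weights and at -0.129 in edgeR without inhibitor 3. The only shared replicate numbers are 1 and 3, whose deviations did not pair the libraries (correlations of -0.442 and -0.0504). The replicate block left 0 genes higher and 7 lower, and turned Runx2 to 0.0816.

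Members near 0 changed sign. Ly6d was -0.0123 and Clec9a -0.0651 with quality weights. With 1 library left out Runx2 ran from -0.197 to 0.0427 (0.0112 without vehicle 3), Bcl11a from -0.0798 to 0.119 (-0.0578 without inhibitor 3) and Clec9a from -0.0406 to 0.259. Without gene length, 3 of 10 members kept their place in the order of levels. The filter of 5 CPM in 3 libraries left Pacsin1, Xcr1, Clec9a and Zbtb46 untested. Depth limits Xcr1 most, with 2 to 50 reads per library.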
